A study of Mus musculus with 10 samples.

Results

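The 10 genes described here are core components of the circadian clock: *Arntl*, *Clock*, *Npas2*, *Per1*, *Per2*, *Per3*, *Cry1*, *Nr1d1*, *Nr1d2* and *Dbp*. They were chosen by name from the 55536 genes counted in bladder RNA of C57BL/6 mice, and all 10 had counts in every library and passed the filter on low counts in every comparison. The 10 libraries were 4 of wild type (WT), 3 of OMD-/- and 3 of PRELP-/- mice. OMD and PRELP are secreted small leucine-rich proteoglycans of the extracellular matrix. Both knockouts are constitutive, lack the protein coding sequence of the one gene in every cell, and carry a β-galactosidase gene in its place. The study asked what loss of either protein does to gene expression in the bladder. Age, sex, pooling of mice and the hour of tissue collection were not given in the sources used here. Without the hour, a shift in the phase of the clock and a change in its level cannot be told apart, and in bulk tissue neither can fewer cells of a type and less RNA per cell.

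In mammals, BMAL1, the product of *Arntl*, pairs with CLOCK or NPAS2 and activates genes that carry E-boxes in their promoters. Among these are the *Per* and *Cry* genes, whose proteins return to inhibit the activators, and *Nr1d1* and *Nr1d2*, whose products REV-ERBα and REV-ERBβ repress *Arntl* and *Npas2* through ROR elements. DBP, made by a further E-box gene, activates genes with D-boxes, and in most peripheral tissues of the mouse *Arntl* and *Npas2* peak at the opposite time of day to *Dbp*, *Nr1d1* and *Per3*. The cells that line the bladder have such a clock, and it has been tied to the daily rhythm of urine storage.

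The 3 elements were searched in RefSeq windows from 250 bases before to 50 after each gene start (build GRCm38.p6), on both strands. Of the 10 genes 9 had a window, 13 windows in all, and *Per2* had none. The letters CACGTG of an E-box were in 7.15% of all 32851 windows and, among the clock genes, in those of *Cry1* and *Per1*. TTATGTAA, a D-box, was in 0.938% of all windows and in that of *Per3*, at 2 places. AGTAGGTNA, a ROR element, was in 0.591% of all windows and in 2 windows of *Arntl*. None of the matches overlapped another. They are shown because they are the only matches among the windows of these genes, and *Per3* and *Arntl* are those many of the following values turn on. The capitals mark the element on the strand of the gene.
Per3, D-box, chr4:151044852-151044881, minus strand: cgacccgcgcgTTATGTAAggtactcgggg
Per3, D-box, chr4:151044805-151044834, minus strand: cccgcccgcggTTATGTAAcccccgccgtg
Arntl, ROR element, chr7:113207493-113207514, plus strand: ttggtcggaaAGTAGGTTAgtg
Arntl, ROR element, chr7:113207529-113207557, plus strand: gaaggcagaaAGTAGGTCAgggacggagg
Per1, E-box, chr11:69098771-69098800, plus strand: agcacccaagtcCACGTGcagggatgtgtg
Cry1, E-box, chr10:85185097-85185126, minus strand: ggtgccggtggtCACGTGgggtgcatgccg
A match describes the letters of the window and does not show that a factor was bound there.

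Total counts ranged from 20391437 to 46269079 in WT, from 22160642 to 23724163 in OMD-/- and from 21590156 to 25905707 in PRELP-/-. *Prelp* had 4848 to 15890 counts in WT and 46 to 74 in PRELP-/-. *Omd* was counted 0, 1, 8 and 12 times in WT replicates 1 to 4, 0 times in each OMD-/- library and 5, 7 and 7 times in PRELP-/-. The libraries labelled WT replicates 1 and 2 thus had as little *Omd* as OMD-/-, although replicate 1 was the deepest library, which goes against their label. *Omd* was near the floor in every library, at most 0.532 CPM (counts scaled to library size). *Prelp* was at 317, 284, 255 and 215 CPM in WT replicates 1 to 4 and at 772, 824 and 826 CPM in OMD-/-. In *Prelp*, *Per3* and *Arntl2*, WT replicates 1 and 2 thus lay with WT replicates 3 and 4. All libraries are named by their labels, and the counts of clock genes called are also given without these WT libraries. The markers of urothelium, the epithelium of the bladder, summed to 10200 to 22800 CPM, and those of smooth muscle to 239 to 1310 CPM. The libraries differed in ways the groups do not describe. Genes of the Y chromosome summed to 194 and 167 CPM in WT replicates 1 and 2 but to 1.46 and 1.06 CPM in replicates 3 and 4. They gave 18.6, 1.15 and 0.914 CPM in OMD-/- and 121, 19.2 and 18.9 CPM in PRELP-/-. Xist, the RNA of the inactive X chromosome, was at 2.13, 5.64, 1020 and 1230 CPM in WT, 38.2, 88.8 and 76.6 CPM in OMD-/- and 0.398, 48.6 and 55.5 CPM in PRELP-/-. OMD-/- replicate 1 and PRELP-/- replicates 2 and 3 thus held both, and the OMD-/- libraries low in Y genes had far less Xist than the WT ones. PRELP-/- replicate 1 stood apart from the other libraries of its group. Against WT, the PRELP-/- values of *Clock*, *Per3*, *Per2* and *Nr1d1* are also given without it. Those of *Cry1*, *Por* and the fibroblast markers are not. Summed levels of 6 nuclear long RNAs, a list added after the values were seen, were 1440 to 1710 CPM in WT, 297 to 365 in OMD-/- and 203 to 257 in PRELP-/-, and markers of fibroblasts summed to 8520 to 9750, 18200 to 22100 and 10500 to 20100 CPM. These differences run along the same groups as the comparisons of the knockouts with WT, and their part in the clock gene values was not tested.

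*Per* exonic kilobase of GENCODE vM21, the REV-ERB genes and *Dbp* were the most abundant of the 10 genes in WT. *Nr1d1* was at 42.9 ± 2.63 CPM per kb (SD, n = 4), *Nr1d2* at 20.4 ± 2.87 and *Dbp* at 18.4 ± 4.39, and the levels of the latter pair did not differ beyond their spread. *Clock* followed at 8.78 ± 0.189 and *Per2* at 6.98 ± 0.532 CPM per kb. *Per3*, *Per1*, *Npas2* and *Cry1* lay together between 3.79 and 4.12 CPM per kb, within their spread, and *Arntl* was lowest at 2.17 ± 0.899 CPM per kb. In both knockouts *Nr1d1* remained the highest, and *Per3* was the lowest, at 1.15 ± 0.0868 CPM per kb in OMD-/- and 1.31 ± 0.408 in PRELP-/- (n = 3 each). *Nr1d1* shares 263 exonic bases, 8.55% of its own, with *Thra* on the other strand, a gene at 86.5 to 112 CPM. *Dbp* shares 539 bases, 18.0% of its own, with *Sphk2*, at 58.5 to 70.6 CPM. The CPM of *Thra* and *Sphk2* are scaled to total counts only. *Arntl* shares 33 bases with *Gm45355*, which had no counts. The libraries were strand-specific, but the strand setting of the counting was not given, so reads of *Nr1d1* and *Dbp* cannot be fully told apart from those of these neighbours.

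**Figure D1:**
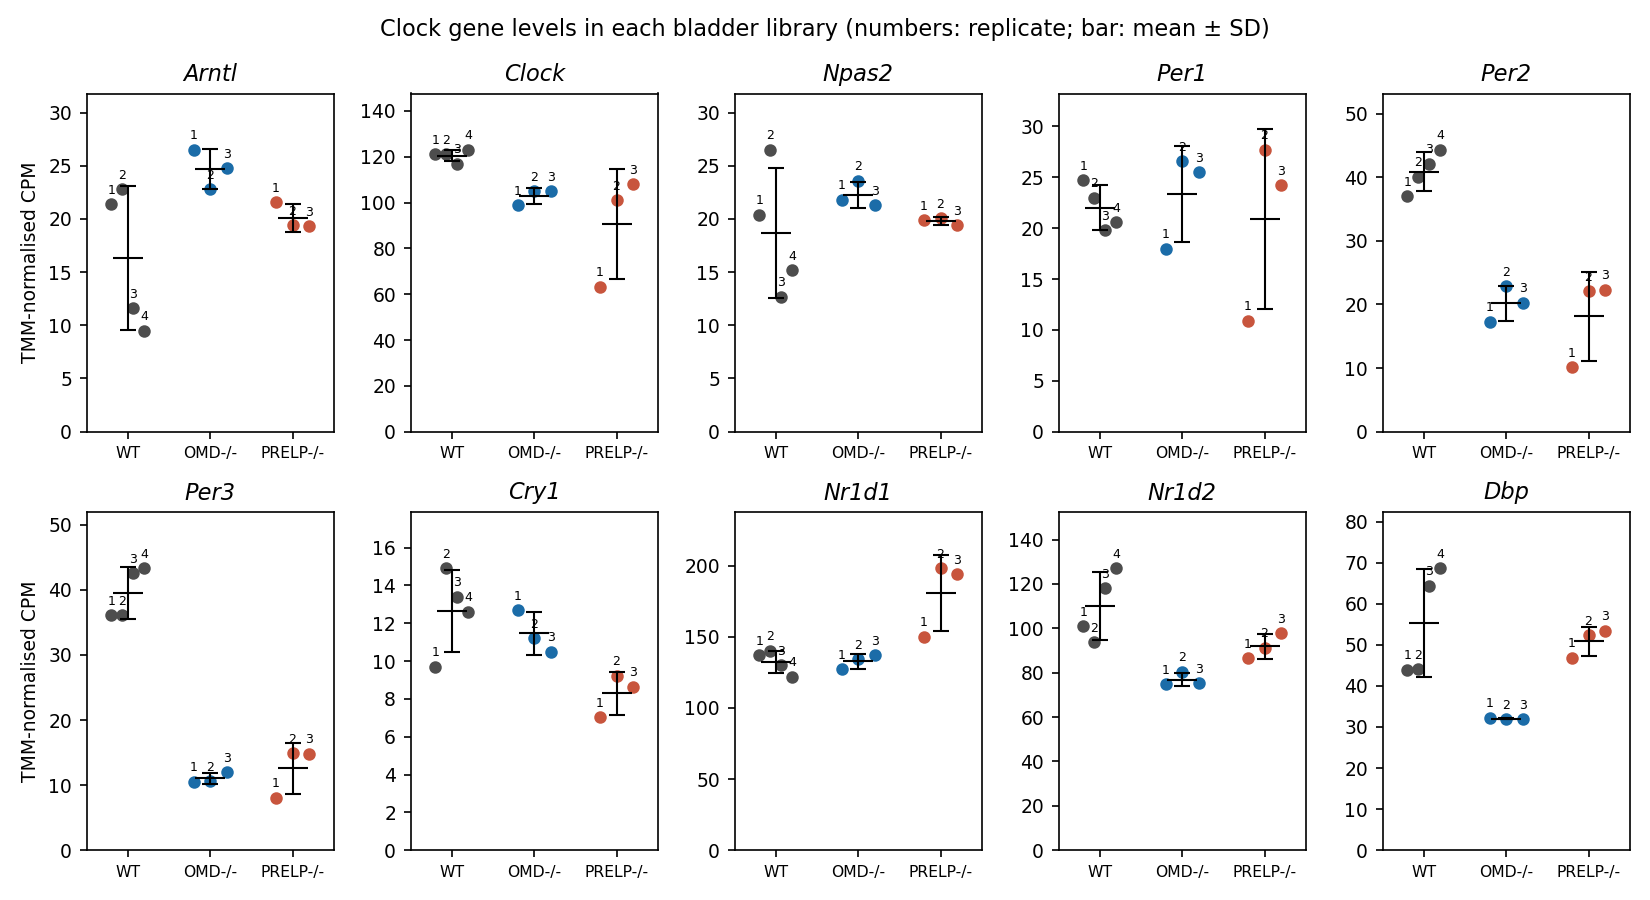
Levels of the 10 clock genes in each library, as TMM-normalised CPM on axes that start at 0. Points are libraries with their replicate number, and bars give the mean ± SD of 4 WT, 3 OMD-/- and 3 PRELP-/- libraries. *Per2* and *Per3* were lower in every knockout library than in every WT library, and the WT libraries of *Arntl* lay in 2 pairs, replicates 1 and 2 at 21.4 and 22.8 CPM and replicates 3 and 4 at 11.6 and 9.48 CPM.

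Comparing OMD-/- with WT, 5 of the 10 clock genes fell and none rose. The 5 were *Per3*, *Per2*, *Dbp*, *Nr1d2* and *Clock*, and the period genes fell most, *Per3* to 0.280 and *Per2* to 0.494 of its WT level. Of the 16647 genes tested, 29.4% passed in either direction, 15.1% as lower and 14.3% as higher (edgeR, quasi-likelihood, with p-values adjusted by the method of Benjamini and Hochberg), so the background held many changed genes. Each OMD-/- library was below each WT library in 5 of the 10 genes, against 19.7% of all genes. The median log2 fold change of the 10 was -0.18, beside 0.00 for all genes. In PRELP-/-, 2 of the 10 fell, *Per3* and *Per2*, and none rose, against 7.29% of 16581 genes in either direction, 5.89% as lower and 1.40% as higher. Each PRELP-/- library was below each WT library in 4 of the 10 genes, against 16.4% of all genes, and the median of the 10 was -0.21, beside 0.02. Without WT replicates 1 and 2, a choice made after the data were seen, the count was 7 of 10 in OMD-/-, *Arntl* and *Npas2* being the ones added. It was 0 of 10 in PRELP-/-, where *Per3* was at -1.77 ± 0.31 (edgeR, adjusted p = 0.0503). Calls over all genes moved the same way, from 4899 to 6711 in OMD-/- and from 1209 to 453 in PRELP-/-. Both comparisons share the WT libraries and are not independent of each other.

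**Figure D2:**
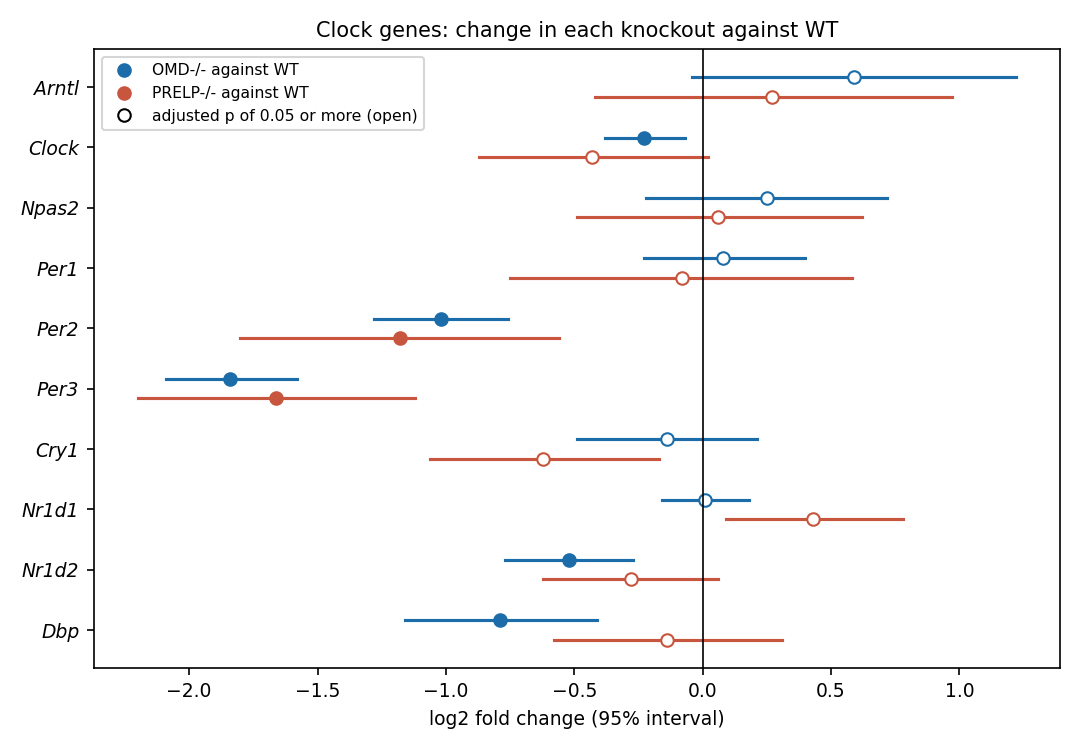
Log2 fold changes of the 10 clock genes in OMD-/- (blue) and PRELP-/- (red) against WT, with 95% intervals from edgeR. Filled points had an adjusted p under 0.05. *Per3* and *Per2* are filled and below 0 in both knockouts, and *Clock*, *Nr1d2* and *Dbp* only in OMD-/-, though a test of the difference between the knockouts did not pass.

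Among the activators, *Arntl* (chromosome 7, 113207465 to 113314126, plus strand) encodes BMAL1, the partner of CLOCK or NPAS2. It was at 21.4, 22.8, 11.6 and 9.48 CPM in WT replicates 1 to 4, at 26.5, 22.8 and 24.8 CPM in OMD-/-, and at 21.6, 19.4 and 19.3 CPM in PRELP-/-. The spread was therefore within WT, whose replicates 3 and 4 were the lowest of all libraries, while the knockout libraries lay near or above WT replicates 1 and 2. The log2 fold change was 0.59 ± 0.28 (SE) in OMD-/- (edgeR, adjusted p = 0.144; 95% interval -0.04 to 1.22) and 0.27 ± 0.31 in PRELP-/- (edgeR, adjusted p = 0.600; -0.42 to 0.97). The first value depended on how the WT libraries were taken. With the level of Y genes in the fit it was 1.04 ± 0.14 (edgeR, adjusted p = 2.70e-04), and in the libraries with under 2 CPM of Y genes alone, WT replicates 3 and 4 against OMD-/- replicates 2 and 3, it was 1.17 ± 0.12 (edgeR, adjusted p = 5.83e-07), a selection made after the data were seen of libraries that were unlike in Xist. The same WT libraries also had 1310 and 1150 CPM of smooth muscle markers, against 336 and 318 CPM in replicates 1 and 2, and 177 and 165 CPM of endothelial markers, against 356 and 354 CPM. The part of sex and cell makeup in this split was not tested.

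*Npas2* (chromosome 1, 39193731 to 39363236, plus strand), which can take the place of CLOCK in the dimer, was split in the same way. Its WT libraries had 20.4, 26.5, 12.7 and 15.2 CPM. Those of OMD-/- had 21.8, 23.6 and 21.3 CPM and those of PRELP-/- 19.9, 20.1 and 19.4 CPM. Both knockouts fell inside the WT range, with log2 fold changes of 0.25 ± 0.21 (edgeR, adjusted p = 0.409) and 0.06 ± 0.24 (edgeR, adjusted p = 0.895). As for *Arntl*, the OMD-/- value passed with the level of Y genes in the fit, at 0.52 ± 0.16 (edgeR, adjusted p = 0.0246).

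*Clock* (chromosome 5, 76209868 to 76304792, minus strand) varied least within WT relative to its mean, at 121, 121, 117 and 123 CPM. In OMD-/- it was at 98.8, 105 and 105 CPM and in PRELP-/- at 63.2, 101 and 108 CPM, so that neither knockout overlapped WT. The fall in OMD-/- was small, -0.23 ± 0.07 on the log2 scale (edgeR, adjusted p = 0.0363), and was not called when any 1 library was left out (adjusted p from 0.0557 to 0.0962) nor with all 3 groups in one fit (0.400). The PRELP-/- value of -0.43 ± 0.19 did not pass (edgeR, adjusted p = 0.200) and became -0.20 ± 0.07 without replicate 1 (edgeR, adjusted p = 0.0848).

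The period genes encode the repressors that carry the delay of the loop, and they did not move together. *Per3* (chromosome 4, 151003652 to 151044665, minus strand), the gene with 2 D-boxes printed above, was at 36.1, 36.1, 42.6 and 43.3 CPM in WT. In OMD-/- it was at 10.5, 10.6 and 12.0 CPM, and in PRELP-/- at 8.07, 14.9 and 14.8 CPM. The highest knockout library, at 14.9 CPM, was far below the lowest WT library. The log2 fold change was -1.84 ± 0.12 in OMD-/- (edgeR, adjusted p = 3.82e-06), a fall of 3.57-fold, and -1.66 ± 0.24 in PRELP-/- (edgeR, adjusted p = 0.00551), a fall of 3.16-fold. Without PRELP-/- replicate 1 the latter was -1.40 ± 0.12 (edgeR, adjusted p = 2.88e-04). The PRELP-/- fall was not called with the replicate number as a block (-1.67, edgeR, adjusted p = 0.0599), a fit that also left out WT replicate 4.

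*Per2* (chromosome 1, 91415982 to 91459324, minus strand), a period gene whose loss disturbs the daily running rhythm of mice, was at 37.0, 40.1, 42.1 and 44.3 CPM in WT. It was at 17.3, 22.9 and 20.3 CPM in OMD-/- and at 10.1, 22.1 and 22.3 CPM in PRELP-/-. All knockout libraries were below all WT libraries, and PRELP-/- replicate 1 was lowest. *Per2* fell by 1.02 ± 0.12 on the log2 scale in OMD-/- (edgeR, adjusted p = 2.00e-04) and by 1.18 ± 0.27 in PRELP-/- (edgeR, adjusted p = 0.0362). The PRELP-/- call was lost without any 1 of WT replicates 1 to 4 (edgeR, adjusted p = 0.0739, 0.0867, 0.103 and 0.101) and without PRELP-/- replicate 2 or 3 (0.0648 and 0.0577). It was also lost with the replicate block, again without WT replicate 4 (edgeR, adjusted p = 0.139). Without replicate 1 it held at -0.87 ± 0.11 (edgeR, adjusted p = 0.00121).

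*Per1* (chromosome 11, 69095217 to 69109960, plus strand), which also answers quickly to stress and light, showed no such fall. WT libraries had 24.7, 23.0, 19.8 and 20.6 CPM, OMD-/- libraries 18.0, 26.6 and 25.5 CPM and PRELP-/- libraries 10.9, 27.7 and 24.2 CPM. Replicate 1 was the lowest in both knockouts, below every WT library, and the other knockout libraries were within or above the WT range. The log2 fold changes were 0.08 ± 0.14 (edgeR, adjusted p = 0.699; 95% interval -0.23 to 0.40) and -0.08 ± 0.29 (edgeR, adjusted p = 0.878; -0.75 to 0.58), and both signs depended on single libraries. The ratio of *Per2* to *Per1* counts, which needs no scaling between libraries, separated the groups. Its log2 was 0.58, 0.80, 1.09 and 1.11 in WT, -0.06, -0.22 and -0.32 in OMD-/-, and -0.11, -0.32 and -0.12 in PRELP-/-, so that it was above 0 in each WT library and below 0 in each knockout library.

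*Cry1* (chromosome 10, 85131700 to 85185064, minus strand), the cryptochrome that binds the activators with PER proteins, had the lowest count of any of the 10 genes in a library, 124. It was at 9.69, 14.9, 13.4 and 12.6 CPM in WT, 12.7, 11.2 and 10.5 CPM in OMD-/- and 7.04, 9.22 and 8.64 CPM in PRELP-/-. OMD-/- lay inside the WT range, and PRELP-/- below it. The log2 fold changes were -0.14 ± 0.16 (edgeR, adjusted p = 0.541) and -0.62 ± 0.20 (edgeR, adjusted p = 0.0909).

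The REV-ERB genes differed from each other. *Nr1d1* (chromosome 11, 98767932 to 98775333, minus strand) was at 137, 140, 130 and 122 CPM in WT and at 127, 134 and 137 CPM in OMD-/-, a log2 fold change of 0.01 ± 0.08 (edgeR, adjusted p = 0.962; 95% interval -0.16 to 0.18). In PRELP-/- it was at 150, 198 and 194 CPM, above every WT library. That difference of 0.43 ± 0.15 did not pass (edgeR, adjusted p = 0.111). Without PRELP-/- replicate 1 it was 0.58 ± 0.08 and passed (edgeR, adjusted p = 0.00196).

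*Nr1d2* (chromosome 14, 18204054 to 18239127, minus strand), which acts alongside *Nr1d1*, went lower in OMD-/-. It was at 101, 93.6, 118 and 127 CPM in WT, at 74.9, 80.5 and 75.3 CPM in OMD-/- and at 86.5, 91.2 and 97.8 CPM in PRELP-/-. OMD-/- was below every WT library, and PRELP-/- overlapped WT replicate 2. The log2 fold changes were -0.52 ± 0.11 (edgeR, adjusted p = 0.00638) and -0.28 ± 0.15 (edgeR, adjusted p = 0.265).

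*Dbp* (chromosome 7, 45705088 to 45710203, plus strand), the output factor of the set, was at 43.9, 44.0, 64.4 and 68.6 CPM in WT. OMD-/- libraries lay close together at 32.2, 31.9 and 31.9 CPM, below all of WT, and PRELP-/- libraries at 46.8, 52.3 and 53.4 CPM were inside the WT range. *Dbp* fell by 0.79 ± 0.17 on the log2 scale in OMD-/- (edgeR, adjusted p = 0.00679), and its PRELP-/- value was -0.14 ± 0.20 (edgeR, adjusted p = 0.691). Its neighbour on the other strand, *Sphk2*, varied between 58.5 and 70.6 CPM, scaled to total counts only, over all 10 libraries.

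Set against each other, the knockouts differed in none of the 10 genes by edgeR's test (0 of 10, against 1 of 15805 genes, or 0.00633%). At an unadjusted p under 0.05 were 713 of the 15805 genes, and 3 of the 10. These were *Dbp*, at 0.66 ± 0.13 higher in PRELP-/- than in OMD-/- on the log2 scale (95% interval 0.35 to 0.97), *Nr1d1*, at 0.44 ± 0.16 higher, and *Cry1*, at -0.47 ± 0.18 (edgeR, adjusted p = 0.690 each). No library of PRELP-/- overlapped OMD-/- for these 3, nor for *Arntl*, *Nr1d2* and *Npas2*. Each PRELP-/- library was above each OMD-/- library in 3 of the 10 genes and below in 3, against 1009 and 1378 of 15805 genes. DESeq2 called *Dbp* alone (adjusted p = 0.0160), and edgeR without PRELP-/- replicate 1 called *Dbp* (adjusted p = 0.0148) and *Nr1d1* (adjusted p = 0.0271). For *Per3* the difference was 0.19 ± 0.26, with an interval from -0.43 to 0.81, and for *Per2* -0.15 ± 0.32, from -0.91 to 0.61. So a clock gene called in OMD-/- and not in PRELP-/- is not thereby shown to differ between them.

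The relation between activators and repressors could be read only from differences between libraries, since no time course was made. Within WT, the libraries with high *Arntl* and *Npas2*, replicates 1 and 2, had the lower *Dbp*, *Nr1d2* and *Per3*, and replicates 3 and 4 the reverse. The log2 ratio of *Arntl* to *Dbp* counts was -1.03 and -0.95 in the first pair and -2.47 and -2.85 in the second. It was -0.28, -0.49 and -0.36 in OMD-/-, above every WT library, and -1.12, -1.43 and -1.47 in PRELP-/-, between the WT pairs. For *Arntl* to *Per3* both knockouts were outside WT. That log2 ratio was -0.75, -0.66, -1.87 and -2.19 in WT, 1.33, 1.10 and 1.05 in OMD-/- and 1.42, 0.39 and 0.38 in PRELP-/-. It was thus below 0 in each WT library and above 0 in each knockout library. The log2 ratio of *Per3* to *Nr1d1*, which peak in neighbouring phases, ran from -1.95 to -1.49 in WT, from -3.65 to -3.52 in OMD-/- and from -4.21 to -3.71 in PRELP-/-.

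**Figure D3:**
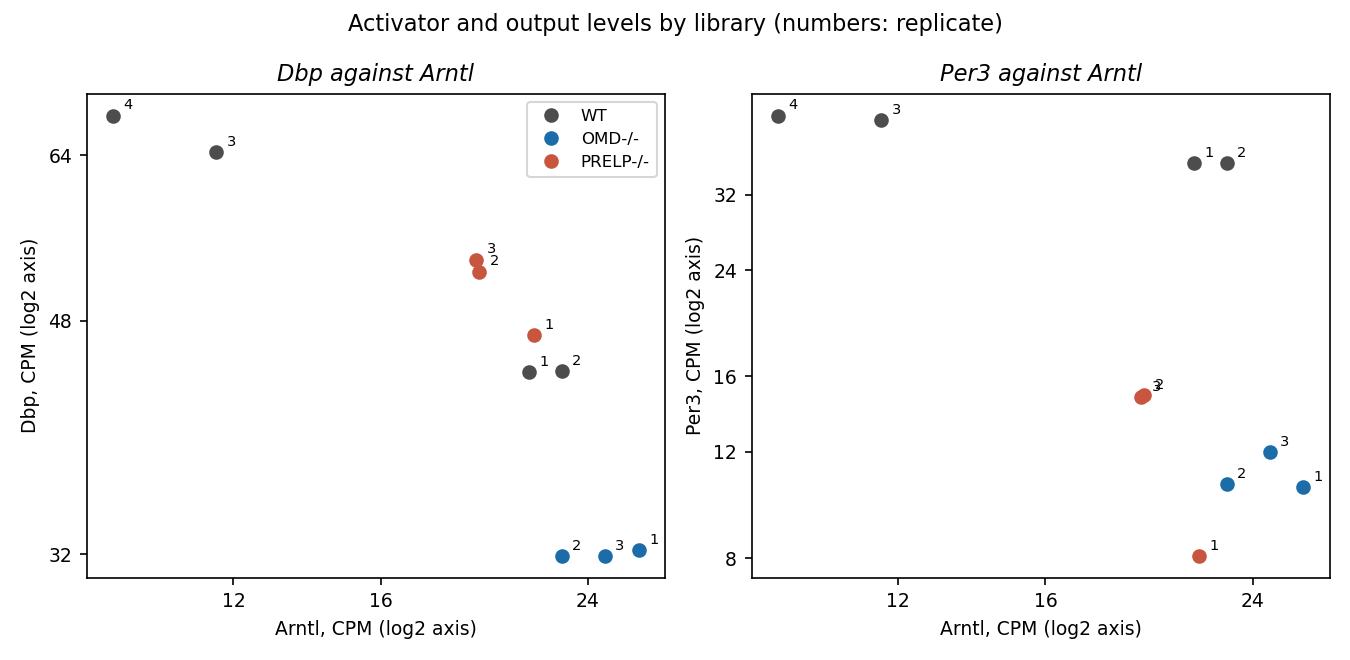
*Dbp* (left) and *Per3* (right) against *Arntl*, each point one library with its replicate number, both axes in TMM-normalised CPM on a log2 scale. WT replicates 3 and 4 lie at low *Arntl* and high *Dbp* and *Per3*, and the knockout libraries at *Arntl* from 19.3 to 26.5 CPM. For *Per3* all 6 knockout libraries lie between 8.07 and 14.9 CPM, below WT libraries of like *Arntl* level.

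Over the 10 libraries, after each group's mean was taken off, deviations of *Arntl* were set against those of the 9 other genes, with exact two-sided permutation within groups (864 arrangements, smallest possible p 0.00116) and adjustment over the 9. *Nr1d2* had r = -0.95 (adjusted exact permutation p = 0.0208) and rho = -0.99 (adjusted p = 0.0104). *Per2* had r = -0.31 (adjusted exact permutation p = 0.0208) and rho = -0.67 (adjusted p = 0.0208). *Dbp*, with the strongest Pearson coefficient at r = -0.98 and rho = -0.85, did not pass (adjusted exact permutation p = 0.0573 and 0.229), and neither did *Per3* at r = -0.42 and rho = -0.67 (0.0573 and 0.111) nor *Npas2* at r = 0.84 and rho = 0.71 (0.377 and 0.359). *Nr1d1*, a repressor of *Arntl* like *Nr1d2*, had r = 0.28 (0.429), and *Per1*, *Clock* and *Cry1* had r = 0.05, -0.11 and -0.16 (0.865, 0.429 and 0.865). Same-numbered OMD-/- and PRELP-/- libraries were also permuted together, in case their numbers mark pairs, a choice made after the data were seen. Then 144 arrangements remained and no relation passed (smallest adjusted exact permutation p = 0.0625, for *Nr1d2*, *Per2* and *Dbp*). Without the 2 libraries farthest from the middle, WT replicates 4 and 2, *Nr1d2* kept r = -0.87 (exact permutation p = 0.0278), *Per2* r = -0.38 (0.0139) and *Dbp* r = -0.96 (0.139). In the 6 knockout libraries alone r was negative for all 9 genes, at -0.85 for *Nr1d2*, -0.84 for *Per2* and *Per1*, -0.72 for *Clock* and *Nr1d1*, -0.63 for *Per3*, -0.60 for *Dbp*, -0.51 for *Npas2* and -0.24 for *Cry1*, so it did not set repressors apart from activators. With pairs kept these libraries allow 6 arrangements and no exact permutation p below 0.167. Neither relation that passed was called without OMD-/- replicate 2 or without any 1 PRELP-/- library, and without WT replicate 4 only that of *Nr1d2* was. The WT libraries split by Y gene level in the same way, and libraries of like Y gene level were too few for a coefficient of their own.

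As a description with no test, the genes outside the set whose group-centred levels followed *Arntl* most closely over the 10 libraries were sought among 11505 genes with a mean of at least 5 CPM. The highest r were those of *Slco2a1*, *Selenon*, *Padi4*, *Apcdd1* and *Tnfrsf1a*, from 0.974 to 0.985, and the lowest those of *Mat2a*, *Slc16a12*, *Lox*, *Rgs2* and *Trim30d*, from -0.987 to -0.977. Among all these genes *Dbp* ranked 6 and *Nr1d2* 14 from the lowest, while *Npas2* ranked 285 from the highest. For *Dbp* the highest were *Rgs2*, *Ogn*, *Synpo2*, *Gm15446* and *Lox*, from 0.962 to 0.981, and the lowest *Tgfb1*, *Glul*, *Padi4*, *Rasip1* and *Tnfrsf1a*, from -0.992 to -0.979. All these coefficients share the 10 libraries and the split among the WT replicates.

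Of 20 further clock genes, 6 fell and 1 rose in OMD-/-, against 15.1% of all genes lower and 14.3% higher. In PRELP-/- 1 fell and none rose, against 5.89% lower and 1.40% higher. Taken in either direction, these were 7 of 20 against 29.4% and 1 of 20 against 7.29%. Neither of these last shares stands far from its background, though the calls in OMD-/- leaned towards lower. The medians were -0.17 and -0.13 on the log2 scale. The largest fall was that of *Arntl2*, which encodes BMAL2, the paralog of BMAL1. *Arntl2* was at 14.7, 14.5, 19.7 and 19.2 CPM in WT, 3.82, 2.97 and 3.24 CPM in OMD-/- and 3.41, 2.93 and 3.68 CPM in PRELP-/-. The knockouts were at the same low level, with no overlap with WT, and the log2 fold changes were -2.35 ± 0.18 (edgeR, adjusted p = 1.28e-05) and -2.37 ± 0.20 (edgeR, adjusted p = 3.93e-04). The decrease of *Arntl2* was 5.10-fold and 5.17-fold, where *Arntl* itself did not fall.

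Other further genes that passed in OMD-/- act at the same elements or with the repressors. *Tef*, a D-box factor related to *Dbp*, fell by 0.65 ± 0.11 (edgeR, adjusted p = 0.00161). The repressors of E-box transcription *Ciart* and *Bhlhe41* fell by 1.47 ± 0.37 (edgeR, adjusted p = 0.0126) and 0.36 ± 0.13 (edgeR, adjusted p = 0.0491), *Ciart* at under 5 CPM in every library. *Nono*, an RNA-binding partner of PER proteins, rose by 0.36 ± 0.08 (edgeR, adjusted p = 0.00626). In PRELP-/- these 4 had log2 fold changes of -0.28 (*Tef*), -1.52 (*Ciart*), -0.19 (*Bhlhe41*) and 0.41 (*Nono*), none past the threshold.

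**Figure D4:**
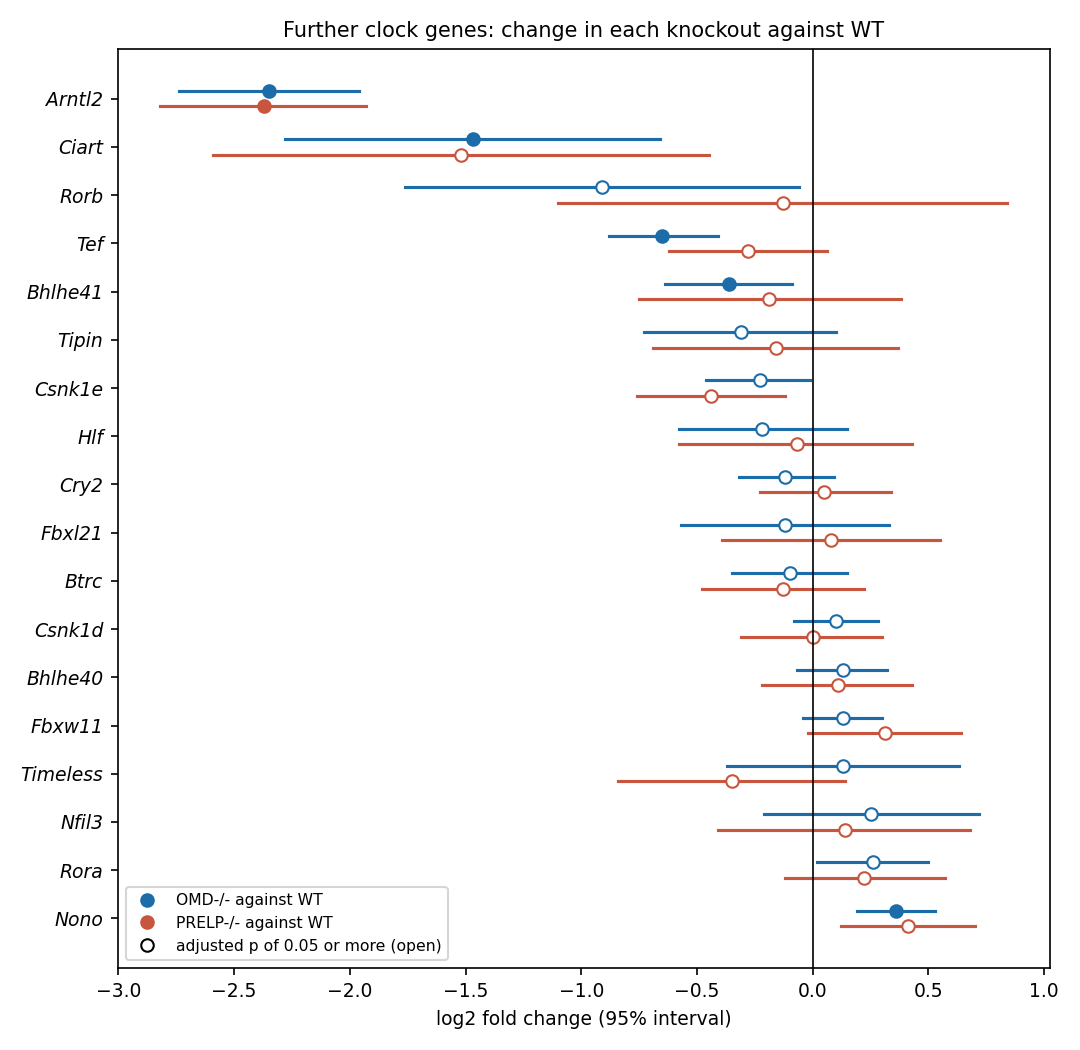
Log2 fold changes of 18 of the 20 further clock genes in OMD-/- (blue) and PRELP-/- (red) against WT with 95% intervals from edgeR, ordered by the OMD-/- value. Filled points had an adjusted p under 0.05. *Arntl2* lies at -2.35 and -2.37 and is the only gene filled in both, and *Ciart* lies at -1.47 and -1.52 with wide intervals.

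Of 12 genes known as rhythmic outputs in many tissues that could be tested, 1 rose and 1 fell in OMD-/-, against 29.4% of all genes, and none passed in PRELP-/-, against 7.29% (edgeR, 1 at an unadjusted p under 0.05, and 0 by DESeq2). In OMD-/- limma-voom called 5 and the libraries low in Y genes 6. Those fits also called more of all genes, 7228 and 8989, in place of 4899. The medians were -0.01 and 0.01. *Por*, the electron donor of cytochrome P450 enzymes, was at 245, 247, 251 and 248 CPM in WT and at 349, 371 and 376 CPM in OMD-/-, a rise of 0.56 ± 0.08 (edgeR, adjusted p = 4.83e-04). In PRELP-/- it was at 263, 376 and 348 CPM, above WT in each library, at 0.39 ± 0.16 (edgeR, adjusted p = 0.160). *Lonrf3*, a RING finger gene below 6 CPM, fell by 0.67 ± 0.21 in OMD-/- (edgeR, adjusted p = 0.0365).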

How the data were processed

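Poly(A)-selected, strand-specific bladder libraries of 4 WT, 3 OMD-/- and 3 PRELP-/- mice were analysed. The authors deposited whole-number read counts per gene, without normalization, counted with featureCounts. The file headers name HISAT2, while the submitters' processing notes name STAR 2.5.2b, bcl2fastq and DESeq2 and the builds GRCm38 and hg38 without their roles. Strand setting and use of molecular identifiers were not given. The authors' tables of DESeq2 fold changes and p-values were not used. The labels speak of homogenised bladder tissue and the methods of isolated epithelia. That same-labelled libraries came from separate mice was not stated, so p-values measure the spread between libraries, which may be technical.

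All 55536 identifiers matched GENCODE vM21 (GRCm38). Groups came from the labels' titles, and the paper gives other group sizes. Every comparison used a fit of the 2 groups concerned in R 4.3.3 with edgeR 4.0.16: TMM normalization, filterByExpr, robust quasi-likelihood test, two-sided, Benjamini-Hochberg adjustment over all genes tested, threshold 0.05. Levels are CPM with TMM factors of all 10 libraries, and log2 CPM used a prior count of 2. Those of genes overlapping a member are CPM of total counts, without TMM factors. Alternatives used DESeq2 1.42.0 and limma 3.58.1. The replicate block set the replicate number as a factor in edgeR's fit. Against WT it left out WT replicate 4, which had no knockout library of its number. Correlations and motif searches used Python 3.11.15. The fits were tested on simulated data. Counts of the 10 genes ranged from 124 to 6847 per library. Replicate spread was very small in some groups, as for *Dbp* in OMD-/- (SD 0.147 at a mean of 32.0 CPM). Counting error was therefore not small beside replicate spread for every gene. Same-numbered OMD-/- and PRELP-/- libraries deviated together (r = 0.303, 0.181 and 0.148), so pairing by number was tried as an alternative. Same-numbered WT and knockout libraries did not do so (r from -0.0443 to 0.0410 for OMD-/- and from -0.0998 to 0.137 for PRELP-/-). Libraries of unlike number were not compared, and replicate 1 stood apart from replicates 2 and 3 in both knockouts. The r values therefore do not show that the numbers mark pairs. No pair of libraries agreed within sampling noise (chi-square over its degrees of freedom of at least 3.10), so each was counted. The members and lists were chosen with earlier results of these data known. Named were all members, genes overlapping them, the further clock and output genes that passed, the 5 highest and 5 lowest r with *Arntl* and with *Dbp*, and of other lists up to 4 examples with the smallest p. Some genes chosen by this rule are not reported here.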

Additional observations from a re-analysis of the deposited data

How the results depend on the processing

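The number of clock genes called in OMD-/- was 5, and 4 to 7 under 15 of 17 alternatives, including 4 without any 1 library and 4 with the replicate block. It was 3 with close pairs of libraries summed (replicates 1 with 2 and 3 with 4 of WT, 2 with 3 of each knockout) and 8 in libraries with under 2 CPM of Y genes, both chosen after seeing the data. The 2 called in PRELP-/- became 1 to 3 without single libraries, 0 with the replicate block, 4 with all 3 groups in one fit, 6 by limma-voom with quality weights, 1 with Y gene level as covariate, 0 with close pairs summed and 0 with WT replicates 1 and 2 left out. The 0 between the knockouts became 1 by DESeq2, 5 by limma-voom and 0 to 2 without single libraries, and stayed 0 with the replicate block, where 43 genes of all passed in place of 1. The 2 relations of *Arntl* became 4 with DESeq2 size factors, 0 with the knockout pairs kept in the permutation and 0 to 3 without single libraries. The causes were not tested, except that summing pairs leaves fewer samples and keeping pairs fewer arrangements.

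Over all genes, calls in OMD-/- ranged from 1658 (close pairs summed) to 8989 (Y-poor libraries), with 4899 in the reported fit, 2485 with all groups in one fit and 2951 to 4850 without single libraries. They were 6711 with WT replicates 1 and 2 left out and 7228 by limma-voom. In PRELP-/-, with 1209 reported, they were 13 (close pairs summed), 111 (replicate block), 453 (WT replicates 1 and 2 left out), 2542 (DESeq2), 2485 (one fit), 6973 (limma-voom) and 475 to 3807 without single libraries. Between the knockouts, with 1 reported, they were 87 (DESeq2), 5 (no filter), 3 (one fit), 1012 (limma-voom), 5 (Y covariate), 0 (close pairs summed) and 1 to 36 without single libraries. Further clock genes called in OMD-/- (7) were 3 with close pairs summed, 11 with WT replicates 1 and 2 left out and 13 in Y-poor libraries. In PRELP-/- (1) they were 3, 4, 11 and 0 by DESeq2, in one fit, by limma-voom and with close pairs summed, and 1 to 5 without single libraries. Between the knockouts limma-voom called 3. Output genes called in OMD-/- (2) were 1 with no filter, with the replicate block, in one fit and with close pairs summed, 5 by limma-voom, 6 in Y-poor libraries and 1 to 3 without single libraries. In PRELP-/- they were 2 by limma-voom and 0 to 1 without single libraries, and between the knockouts 3 by limma-voom.

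Signs turned for uncalled values. Without single libraries, *Per1* in OMD-/- ran from -0.02 to 0.25 and *Nr1d1* from -0.04 to 0.05 (with the replicate block -0.04), and in PRELP-/- *Npas2* ran from -0.09 to 0.27 and *Per1* from -0.34 to 0.25 (limma-voom 0.29, WT replicates 1 and 2 left out 0.05). Between the knockouts *Clock* ran from -0.34 to 0.02 (Y covariate 0.16), *Per1* from -0.41 to 0.15 (limma-voom 0.05, Y covariate 0.65), *Per2* from -0.32 to 0.14 (limma-voom 0.07, Y covariate 0.48) and *Arntl2* from -0.09 to 0.09 (limma-voom 0.04). The falls of *Per3*, *Per2*, *Dbp* and *Arntl2* in OMD-/- were called in every alternative run, and *Nr1d2* in all but close pairs summed (adjusted p = 0.0510, edgeR).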

Other observations

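Genes that respond to glucocorticoids or to other stimuli were also measured. The glucocorticoid list holds *Per1*, and shares *Klf9*, *Tsc22d3* and *Cdkn1a* with the list of rhythmic outputs. Of 10 genes that glucocorticoids induce, 0 passed in either knockout by edgeR's test (1 and 0 at an unadjusted p under 0.05), against 29.4% of all genes in OMD-/- and 7.29% in PRELP-/-. The medians over this list were 0.09 in OMD-/- and 0.04 in PRELP-/- on the log2 scale. Of 10 immediate early genes, which respond within minutes to stimuli and to handling of tissue, 3 rose and 2 fell in OMD-/- and none passed in PRELP-/- (2 at an unadjusted p under 0.05), beside the same shares of all genes. In OMD-/- *Egr1* rose by 2.19 ± 0.46 (edgeR, adjusted p = 0.0104) and *Dusp1* by 0.70 ± 0.17 (edgeR, adjusted p = 0.0106), while *Btg2* fell by 0.37 ± 0.08 (edgeR, adjusted p = 0.00633). The median over the list was 0.04.

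The cell type lists moved with the groups as well, in a background where 14.3% of all genes rose in OMD-/- and 1.40% in PRELP-/-. In OMD-/- 6 of 8 fibroblast markers and 6 of 8 leukocyte markers rose, among them *Col1a2* by 1.43 ± 0.12 (edgeR, adjusted p = 2.56e-05) and *Cd74* by 1.35 ± 0.18 (edgeR, adjusted p = 5.39e-04), and 3 of 10 urothelial markers rose. In PRELP-/- 3 of 8 fibroblast and 1 of 10 urothelial markers rose, and 0 of 8 leukocyte markers passed (edgeR, 5 at an unadjusted p under 0.05), with a median of 0.55 and with *Lyz2* at -0.72 ± 0.23 and *Ptprc* at -0.59 ± 0.30. Of 8 smooth muscle markers none passed in either knockout, with medians of -0.31 and -1.64 and with 0 and 7 at an unadjusted p under 0.05. Of 6 endothelial markers none passed, with medians of 0.68 and 0.46 and with 4 and 0 at an unadjusted p under 0.05. Of 5 nerve markers tested, *Sox10* rose in OMD-/-, and the adipose and skeletal muscle lists had 1 and 3 genes above the filter and no call. All 5 nuclear long RNAs tested fell in both knockouts, with medians of -4.24 and -4.57. Their part in the clock gene values was not tested.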
